A study of Mus musculus with 24 samples.

Results

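The MAP kinase dual-specificity phosphatases described here were Dusp1, Dusp2, Dusp4, Dusp5, Dusp6, Dusp7, Dusp8, Dusp10, Dusp14 and Dusp16. They were chosen as members of a protein family and not by a rule on measured values, though earlier results of these data were known at the time. They were 10 of the 24273 genes in the deposited table. All 10 passed the filter on low values that left 13901 genes for testing, which was a linear value of at least 5 in at least 3 libraries. RNA-seq had been carried out on C57BL/6 mouse bone marrow-derived macrophages (BMDMs), unstimulated (0 h) or after 0.5, 1 or 2 h with lipopolysaccharide (LPS), the bacterial ligand of TLR4, at 100 ng/ml. By their descriptions both genotypes carried LysM-Cre, in which the myeloid lysozyme locus Lyz2 drives Cre recombinase, so recombination takes place in myeloid cells. Lyz2 RNA itself differed between the groups, as given below. The macrophages had been grown from bone marrow in L-cell conditioned medium. The group labelled FosKO had both Fos alleles floxed. The control group, labelled LysM-Cre, had LysM-Cre alone by the series' design text and was heterozygous for floxed Fos by the study's own description. There were 3 libraries in each of the 8 groups, 24 in all. The study's methods call the libraries biological replicates. The age of the donor mice and whether each library came from a separate mouse or culture were not given in the sources used here, so p-values measure the spread between these libraries.

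MAP kinases (ERK, JNK and p38) are switched on when MAP kinase kinases phosphorylate a threonine and a tyrosine in their activation loop, and dual-specificity phosphatases switch them off by removing both phosphates. In macrophages several of these phosphatases are themselves immediate early genes that are transcribed within minutes of TLR4 stimulation, which closes a negative feedback loop on ERK, JNK and p38. The inducible nuclear enzymes are DUSP1, DUSP2, DUSP4 and DUSP5. DUSP6 and DUSP7 are cytoplasmic and act on ERK, DUSP8, DUSP10 and DUSP16 act mainly on JNK and p38, and DUSP14 is a small atypical member that lacks the MAP kinase-binding domain. FOS is a transcription factor that is induced and stabilised by ERK signalling and binds AP-1 sites as a dimer with JUN proteins.

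After LPS the family split by course. Dusp1, Dusp2, Dusp4, Dusp5 and Dusp8 rose within 0.5 h in both genotypes, by up to 13.8-fold for Dusp2, whereas Dusp14 and Dusp16 rose from 1 h and were highest at 2 h, and Dusp6 and Dusp10 fell. The genotypes differed most in Dusp5, a nuclear phosphatase of ERK, which was lower in the FosKO-labelled libraries at every time and by 4.50-fold at 1 h (n = 3 and 3). Dusp7 was 1.87-fold higher in these libraries before LPS and 1.28-fold lower after 2 h. By 2 h Dusp6 and Dusp16 were 1.51-fold and 1.57-fold higher in the FosKO-labelled libraries. Dusp10 and Dusp14 differed between the genotypes at no time by the test used.

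The libraries of a group had a correlation of 0.995 to 0.998 with each other over the tested genes, which are not replicates. The study's methods give a typical sequencing yield, but the values carry no depth for single libraries, so errors are those between libraries. All values are log2 values as deposited, and they are not scaled by gene length, so levels are compared within a gene only. Fos itself went against the label at 0, 1 and 2 h, when it was higher in the FosKO-labelled libraries by 1.49, 1.64 and 3.29. At 0.5 h it went with the label, with a difference of -0.77. Lyz2 was higher in the FosKO-labelled libraries by between 4.89 and 5.17. The groups thus differed in RNA from the locus of the Cre driver as well as in the Fos label. Whether they carried the same number of copies of the driver was not tested. In the differences between genotypes below, its part cannot be told apart from that of the Fos genotype. A value per gene cannot separate the floxed part of Fos from the rest, so the level of Fos does not check the labels, and directions between genotypes below follow the labels as given. Libraries fell into a low and a high set by their 18S rRNA (Rn18s-rs5), 5 of the 0.5 and 1 h groups with 16.65 to 17.00 and the other 19 with 18.57 to 19.39. At 0.5 h the high 18S set held 2 libraries per genotype and the low set 1, and at 1 h the high set held 1 LysM-Cre and 2 FosKO libraries and the low set 2 and 1. Differences at 0.5 and 1 h are therefore also given within each set. All 8 macrophage markers were measured, with a summed level between 17.17 and 17.59. For neutrophils 7 of 8 markers were in the table and 4 passed the filter, with Ly6g and Elane at the bottom of the scale (at most -2.2). Their summed level was lower in the FosKO-labelled libraries at each time, from 5.77 to 6.03 against 6.31 to 6.77 at 0 h and from 6.27 to 6.47 against 7.03 to 7.43 at 2 h, with no overlap at 0.5 or 1 h either. Dendritic cell markers (2 of 4 passing) were lower in FosKO at 2 h, at 6.41 to 6.46 against 6.79 to 6.93, and overlapped at the other times. Fibroblast markers (2 of 4 passing) were lower at 0 h (3.82 to 4.22 against 4.42 to 4.73) and 1 h (3.78 to 4.30 against 4.33 to 4.82), and macrophage markers were higher at 2 h (17.54 to 17.59 against 17.47 to 17.49). The part of these markers in the differences between genotypes below was not tested. In bulk RNA, fewer cells of a type and less RNA per cell cannot be told apart.

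**Figure D1:**
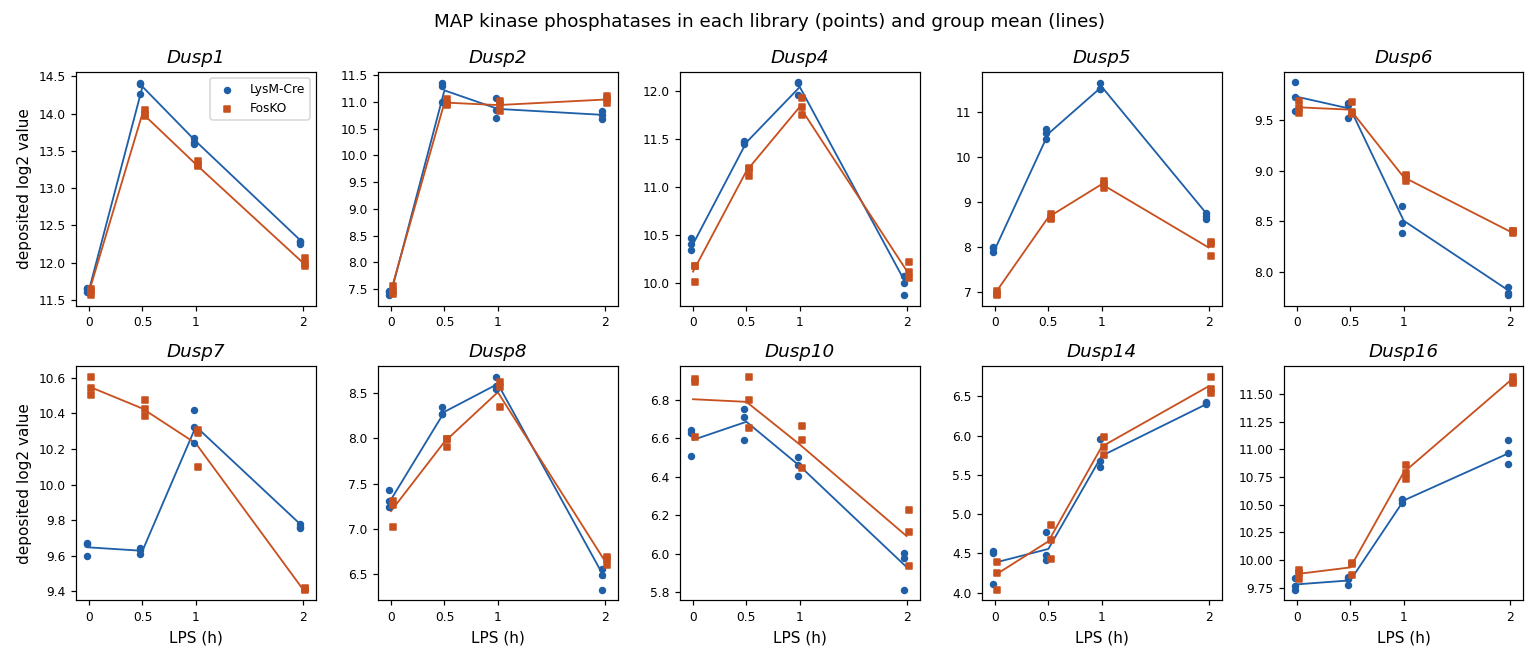
Deposited log2 values of the 10 phosphatases (1 panel per gene, each with its own axis) against hours of LPS. Points are single libraries, circles for LysM-Cre and squares for FosKO, and lines join the means of 3 libraries. The Dusp5 libraries labelled FosKO sit below the LysM-Cre libraries at every time, and the Dusp7 lines cross between 0.5 and 1 h.

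Promoter sequences were examined because the early phosphatases all rose within 0.5 h and the study concerns transcription factors downstream of ERK. RefSeq promoters on GRCm38.p6 were found for 9 of the 10 genes, all but Dusp4, and the 250 bases before each RefSeq start were searched on both strands for 6 motifs. The motifs were the AP-1 site (TGACTCA), the cAMP response element or CRE (TGACGTCA), its core (TGACG, which lies within the CRE), the SRF-binding CArG box, the NF-kB site and an ETS motif (CCGGAA). The sequences shown are those with a CArG box or a full CRE, together with that of Dusp7 as a window with no match. Capitals mark every match, and each sequence runs 5′ to 3′ on the strand of its gene. They lie at chr19:53528895-53529144 (plus strand) for Dusp5, chr17:26508473-26508722 (minus strand) for Dusp1, chr7:142095285-142095534 (minus strand) for Dusp8 and chr9:106368382-106368631 (plus strand) for Dusp7.
Dusp5: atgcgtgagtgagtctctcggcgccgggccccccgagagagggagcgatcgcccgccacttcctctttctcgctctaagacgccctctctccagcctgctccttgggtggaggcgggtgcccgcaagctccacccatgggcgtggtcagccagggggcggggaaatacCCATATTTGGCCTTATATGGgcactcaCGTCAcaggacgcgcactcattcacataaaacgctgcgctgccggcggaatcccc
Dusp1: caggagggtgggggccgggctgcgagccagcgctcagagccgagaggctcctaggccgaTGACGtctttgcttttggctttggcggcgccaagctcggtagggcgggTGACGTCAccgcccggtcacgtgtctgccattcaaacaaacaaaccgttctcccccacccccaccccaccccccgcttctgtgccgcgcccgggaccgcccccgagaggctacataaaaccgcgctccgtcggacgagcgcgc
Dusp8: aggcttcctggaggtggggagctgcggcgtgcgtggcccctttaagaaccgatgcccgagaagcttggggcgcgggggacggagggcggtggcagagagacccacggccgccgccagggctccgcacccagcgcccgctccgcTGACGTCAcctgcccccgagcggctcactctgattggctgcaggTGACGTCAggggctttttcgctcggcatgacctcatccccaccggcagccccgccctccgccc
Dusp7: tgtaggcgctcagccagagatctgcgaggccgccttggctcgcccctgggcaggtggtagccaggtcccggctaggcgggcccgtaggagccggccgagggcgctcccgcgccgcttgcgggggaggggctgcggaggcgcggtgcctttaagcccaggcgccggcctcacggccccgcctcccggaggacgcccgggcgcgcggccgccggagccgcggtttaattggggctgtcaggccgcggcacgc

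Dusp5 held 2 CArG boxes that abut each other, the distal from 82 to 73 and the proximal from 72 to 63 bases before the start, and a CRE core from 55 to 51 bases before it. A CArG box was present in 1.47% of the 32851 promoters in the table, and 2 or more in 0.0183%. Dusp1 had a CRE from 143 to 136 and a further core from 191 to 187 bases before the start. Dusp8 had a CRE from 107 to 100 and another from 63 to 56. A CRE was found in 1.55% of promoters and its core in 17.8%, and 2 or more CREs in 0.0304%. Dusp16 held a CRE core and Dusp14 an ETS motif, which 12% of promoters have. No AP-1 site (4.46% of promoters) or NF-kB site (3.9%) was found in these windows of the 9 genes, and Dusp2, Dusp6, Dusp7 and Dusp10 had no match to any motif. A match is a run of letters and not a site shown to be bound, and sites elsewhere were not examined.

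The response of the family to LPS was measured first. In LysM-Cre 5 of the 10 phosphatases were called at 0.5 h by limma (adjusted p under 0.05), when 7.24% of all tested genes were called, 9 at 1 h against 35.8%, and 10 at 2 h against 60.8%. In FosKO 5 were called at 0.5 h against 5.92% of all genes, 9 at 1 h against 32.6% and 9 at 2 h against 62.1%. The median change over the family in LysM-Cre was 0.57, 1.32 and 0.38 at 0.5, 1 and 2 h, where that over all tested genes was 0.00, 0.00 and -0.02. Between successive times, 9 were called from 0.5 to 1 h in LysM-Cre (26.8% of all genes) and 9 from 1 to 2 h (52.3%). In FosKO these were 8 (27.5%) and 9 (50.7%).

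Among the inducible nuclear phosphatases, Dusp1 (ENSMUSG00000024190, chr17:26505590-26562128, minus strand, GRCm38) encodes an enzyme that inactivates p38 and JNK and restrains cytokine production by macrophages. Its level in the 3 LysM-Cre libraries was 11.60, 11.66 and 11.64 before LPS and reached 14.27, 14.40 and 14.42 after 0.5 h. With the FosKO label it started at 11.64, 11.56 and 11.62 and reached 14.05, 13.99 and 13.97. The genotypes overlapped before LPS and did not overlap at 0.5 h or after. Dusp1 rose by 2.73 in LysM-Cre and by 2.39 in the FosKO-labelled libraries at 0.5 h and then fell at each later time, to 12.27 ± 0.02 and 12.00 ± 0.05 (SD, n = 3) at 2 h. In FosKO it was then still above 0 h by 0.39, a call that ended under quantile normalisation (0.09, adjusted p 0.122). Before LPS the difference between genotypes was -0.03 and was not called (adjusted p 0.657, 95% interval -0.10 to 0.05). After it the difference was -0.36, -0.31 and -0.27 at 0.5, 1 and 2 h. The high 18S set gave -0.36 at 0.5 h and -0.30 at 1 h, and the low set -0.37 and -0.28. The rise itself was smaller in the FosKO-labelled libraries at each time, by -0.33 (SE 0.05, adjusted p 0.00604), -0.28 and -0.24. The test of the difference in response at 1 h lost its call under quantile normalisation (-0.26, adjusted p 0.0593) and in the high 18S libraries alone (-0.27, adjusted p 0.0789), and that at 0.5 h when only the groups compared were fitted (adjusted p 0.135).

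Dusp2 (ENSMUSG00000027368, chr2:127336159-127338376, plus strand), whose product dephosphorylates ERK and p38 in the nucleus of activated leukocytes, rose most at 0.5 h. The LysM-Cre libraries moved from 7.44, 7.46 and 7.39 up to 11.00, 11.29 and 11.36, a change of 3.79 (SE 0.09, limma adjusted p 3.56e-18). Those labelled FosKO moved from 7.55, 7.46 and 7.40 to 10.96, 10.94 and 11.06, a change of 3.52. It stayed high at 2 h in both, at 10.76 ± 0.08 and 11.05 ± 0.06 (SD, n = 3), where Dusp1, Dusp4 and Dusp5 had come down. The difference between genotypes turned with time. It was -0.23 at 0.5 h (adjusted p 0.0389), with overlapping libraries, and 0.29 at 2 h (adjusted p 0.00917), with no overlap. Leaving out LysM-Cre replicate 2 (-0.19), LysM-Cre replicate 3 (-0.15), FosKO replicate 1 (-0.21) or FosKO replicate 2 (-0.20) ended the call at 0.5 h, as did median centring (-0.21, adjusted p 0.0553), no filter (0.0654), no variance trend (0.0515), the high 18S libraries alone (0.191) and a fit of only the groups compared (0.1). Quantile normalisation (0.18) ended that at 2 h. The high 18S set gave -0.14 and the low set -0.40 at 0.5 h, and at 1 h the sign was not shared (0.30 in the high set, called at an adjusted p of 0.0345, and -0.12 in the low set). The difference in response was not called at any time (-0.27, 0.03 and 0.24, smallest adjusted p 0.2) in the fit over all groups.

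Dusp4 (ENSMUSG00000031530, chr8:34807297-34819894, plus strand), a nuclear phosphatase of ERK and JNK, rose and fell in a sharp pulse. In LysM-Cre it started at 10.40, 10.47 and 10.34, stood at 11.96, 12.09 and 12.08 after 1 h and dropped to 10.00, 10.07 and 9.87 by 2 h. It thus rose by 1.64 at 1 h and was 0.42 below its starting level at 2 h (difference -0.42, adjusted p 2.18e-06). With the FosKO label it started at 10.00, 10.18 and 10.17, stood at 11.74, 11.84 and 11.92 after 1 h and came back to 10.05, 10.11 and 10.22. There it returned to a level not distinguishable from 0 h (difference 0.01, 95% interval -0.11 to 0.13). Dusp4 was lower in these libraries at 0, 0.5 and 1 h (-0.29, -0.30 and -0.21) and higher at 2 h (0.15, adjusted p 0.0459), and the difference in response at 2 h was 0.43 (SE 0.08, adjusted p 0.000945). The high 18S set gave -0.27 at 0.5 h and -0.08 at 1 h, where the low set gave -0.35 and -0.34. At 1 h Dusp4 was not called from the high 18S libraries alone (adjusted p 0.583) or once FosKO replicate 1 was left out (-0.16, adjusted p 0.0509). At 2 h quantile normalisation (0.08) ended its call, as did leaving out LysM-Cre replicate 1 (0.16), LysM-Cre replicate 3 (0.09), FosKO replicate 2 (0.15) or FosKO replicate 3 (0.10), and so did no filter (adjusted p 0.0766), no variance trend (0.0611) and a fit of only the groups compared (0.0628).

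Dusp5 (ENSMUSG00000034765, chr19:53529109-53542431, plus strand) encodes a nuclear phosphatase that is selective for ERK and also holds it in the nucleus. Its promoter carries the paired CArG boxes shown above. Before LPS it lay at 7.98, 7.87 and 7.98 in LysM-Cre and at 7.01, 6.92 and 6.94 in FosKO. At 0.5 h these were 10.40, 10.54 and 10.62 against 8.73, 8.63 and 8.62, and at 1 h 11.51, 11.52 and 11.66 against 9.47, 9.31 and 9.40. At 2 h they were 8.75, 8.68 and 8.62 against 8.06, 7.79 and 8.10. The genotypes did not overlap at any time, and the highest library labelled FosKO at 1 h was below every LysM-Cre library at 0.5 h. The difference was -0.99, -1.86, -2.17 and -0.70 (SE 0.07 each, limma adjusted p at most 9.71e-08). It was as large within the 18S sets, at -1.85 (high) and -1.89 (low) after 0.5 h and -2.15 (high) and -2.12 (low) after 1 h.

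LPS still induced Dusp5 in the FosKO-labelled libraries, by 3.25-fold at 0.5 h and 5.41-fold at 1 h, where LysM-Cre gave 5.96-fold and 12.3-fold. The difference in response was -0.87 (SE 0.10, 95% interval -1.08 to -0.66, adjusted p 0.000113) at 0.5 h and -1.18 (95% interval -1.39 to -0.97, adjusted p 2.87e-07) at 1 h. From 1 to 2 h Dusp5 fell, with changes of -2.88 in LysM-Cre and -1.41 in FosKO. By 2 h the difference in response had turned to 0.29, just short of a call (adjusted p 0.0579). It was called without FosKO replicate 2 at 2 h (0.38, adjusted p 0.00466), and under quantile normalisation (0.34) or median centring (0.31). An 18S term (adjusted p 0.0324), a replicate block (0.0371) or a replicate block within genotype (0.0253) also gave the call.

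Dusp6 (ENSMUSG00000019960, chr10:99263231-99267489, plus strand), which encodes the cytoplasmic phosphatase most selective for ERK, is a reporter of ERK activity in many tissues but fell after LPS here. In LysM-Cre it started at 9.88, 9.59 and 9.74, came to 8.48, 8.39 and 8.65 by 1 h and ended at 7.77, 7.84 and 7.79. In FosKO it started at 9.69, 9.63 and 9.58, came to 8.96, 8.95 and 8.90 by 1 h and ended at 8.40, 8.38 and 8.41. The libraries overlapped at 0 h and separated from 1 h. The fall at 2 h was 3.83-fold in LysM-Cre and 2.35-fold in the FosKO-labelled libraries, and the difference in response was 0.54 at 1 h (adjusted p 0.00196) and 0.70 at 2 h (SE 0.09, adjusted p 1.77e-05). The genotypes differed by -0.10 and -0.01 at 0 and 0.5 h (adjusted p 0.23 and 0.934) and by 0.43 and 0.60 at 1 and 2 h. The 18S sets gave 0.45 (high) and 0.44 (low) after 1 h, and -0.03 and 0.03 after 0.5 h. The difference at 0 h was called without LysM-Cre replicate 2 of that time (-0.18).

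Dusp7 (ENSMUSG00000053716, chr9:106368632-106375724, plus strand) encodes the other cytoplasmic phosphatase of ERK and changed in opposite directions in the genotypes over the first hour of LPS, before falling in both. Before LPS it was 9.67, 9.67 and 9.60 in LysM-Cre and 10.61, 10.51 and 10.54 in the FosKO-labelled libraries, a difference of 0.90 (SE 0.05, adjusted p 1.41e-11). At 1 h the LysM-Cre libraries had risen to 10.24, 10.32 and 10.42 and those labelled FosKO had fallen to 10.10, 10.30 and 10.29. At 2 h they lay at 9.78, 9.76 and 9.76 and at 9.41, 9.42 and 9.42. The genotypes thus did not overlap at 0 h, met at 1 h and separated again in the other direction at 2 h. LysM-Cre rose by 0.68 at 1 h, when the FosKO-labelled libraries fell by 0.32, and the difference in response was -1.0 (adjusted p 6.02e-09). At 2 h it was -1.25 (95% interval -1.39 to -1.12, adjusted p 8.92e-11), the largest in size among the 10 genes at that time. The difference between genotypes was 0.80 at 0.5 h, -0.10 at 1 h (adjusted p 0.126, called without LysM-Cre replicate 1 at -0.14 and under quantile normalisation at -0.15) and -0.35 at 2 h. The 18S sets gave 0.83 (high) and 0.74 (low) after 0.5 h, but 0.06 (high) and -0.27 (low) after 1 h. The rise of 0.12 at 2 h in LysM-Cre was no longer called under quantile normalisation (0.035), with no filter (adjusted p 0.0563), or when replicate 3 of 0 h (0.09) or replicate 1 (0.11), 2 (0.12) or 3 (0.12) of 2 h was left out.

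Of the phosphatases directed at JNK and p38, Dusp8 (ENSMUSG00000037887, chr7:142079490-142095843, minus strand) followed the pulse of Dusp4. The LysM-Cre libraries began at 7.24, 7.31 and 7.42, reached 8.58, 8.54 and 8.67 after 1 h and ended at 6.33, 6.56 and 6.50, so that it ended 0.86 below its start (difference -0.86). In FosKO it was 7.31, 7.26 and 7.02, then 8.61, 8.34 and 8.56, then 6.69, 6.61 and 6.67. Only at 0.5 h was a difference between genotypes called, when the LysM-Cre libraries were at 8.27, 8.26 and 8.34 and those labelled FosKO at 7.99, 7.90 and 7.99 (difference -0.33, adjusted p 0.00205). It was -0.32 in the high and -0.35 in the low 18S set. At 1 h the difference was -0.09 (-0.13 and 0.01 within the sets). At 2 h it was 0.19 with no overlap between the libraries (adjusted p 0.0573), which was called without LysM-Cre replicate 2 (0.24), under median centring (0.22) and under quantile normalisation (0.24).

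Dusp10 (ENSMUSG00000039384, chr1:184013302-184075636, plus strand), which limits JNK and p38 in innate and T cell responses, had the narrowest range of the 10 genes. It lay between 5.81 and 6.92 over the 24 libraries. It fell by 0.66 in LysM-Cre and by 0.71 in the FosKO-labelled libraries at 2 h, and at 0.5 and 1 h its changes were not called, except at 1 h in FosKO once replicate 2 of 0 h was left out (-0.33). The differences between genotypes were 0.21, 0.10, 0.11 and 0.16, and none was called (adjusted p from 0.0926 to 0.425). The 95% interval at 0 h ran from 0.01 to 0.41, and without FosKO replicate 2 of that time the difference was called (0.31, adjusted p 0.0192).

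Dusp16 (ENSMUSG00000030203, chr6:134715468-134792625, minus strand), a phosphatase of JNK and p38, rose late. In LysM-Cre it went from 9.77, 9.84 and 9.73 at 0 h to 10.51, 10.55 and 10.55 at 1 h and 10.86, 10.97 and 11.08 at 2 h. In FosKO it went from 9.83, 9.91 and 9.88 to 10.73, 10.79 and 10.85 and then 11.62, 11.59 and 11.65. The gap between genotypes widened with time, from 0.09 at 0 h (adjusted p 0.119) to 0.12, 0.25 and 0.65, and the libraries did not overlap from 0.5 h on. At 2 h the rise was 3.36-fold in the FosKO-labelled libraries and 2.29-fold in LysM-Cre, with a difference in response of 0.56 (SE 0.06, adjusted p 4.09e-06). Both 18S sets gave 0.12 between the genotypes after 0.5 h, and the high set gave 0.31 and the low set 0.18 after 1 h. At 0.5 h the call (adjusted p 0.0439) ended when LysM-Cre replicate 1 (0.12), LysM-Cre replicate 2 (0.09), FosKO replicate 1 (0.10) or FosKO replicate 3 (0.10) was left out. It also ended under quantile normalisation (0.10, adjusted p 0.0706), with no filter (0.0747) or no variance trend (0.0587), in the high 18S libraries alone (0.138) and with only the groups compared (0.0556).

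Dusp14 (ENSMUSG00000018648, chr11:84048041-84069261, minus strand), the atypical member, which dampens signalling from antigen and innate receptors, rose from 1 h on. The LysM-Cre libraries climbed from 4.11, 4.52 and 4.51 to 6.41, 6.43 and 6.40 by 2 h, and those labelled FosKO from 4.24, 4.38 and 4.04 to 6.54, 6.59 and 6.75. This was a change of 2.03 and 2.41, and the difference in response of 0.37 was not called (95% interval -0.03 to 0.77, adjusted p 0.219). The genotypes differed by -0.16, 0.10, 0.12 and 0.21, none of them called, and the sign at 0.5 and 1 h was not shared between the 18S sets (0.32 and -0.35, then 0.32 and -0.07). Its change of 0.43 at 0.5 h in the FosKO-labelled libraries was not called (adjusted p 0.0668). This change was called without replicate 1 of that time (0.54), in the high 18S libraries alone and under quantile normalisation (0.47). A replicate block (adjusted p 0.0306) or a replicate block within genotype (0.0288) also gave the call for Dusp14. Its spread between libraries was the widest of the 10 genes (SD up to 0.23).

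The genotypes were then compared over the whole family at each time. At 0 h 3 of the 10 phosphatases were called, against 35.4% of all tested genes, with Dusp7 higher and Dusp4 and Dusp5 lower in the FosKO-labelled libraries. At 0.5 h 7 were called against 40.9%, at 1 h 5 against 33.9% and at 2 h 7 against 44.6%. Since so many genes were called at every time, nothing particular to the family is read from these shares. The median difference over the family was -0.06, -0.12, -0.01 and 0.18, and over all tested genes it lay between -0.00 and 0.00. At 0.5 h the phosphatases that rose by 0.5 h, Dusp1, Dusp2, Dusp4, Dusp5 and Dusp8, were all called lower in the FosKO-labelled libraries. Of all tested genes 19.7% were called lower then. These phosphatases were grouped by a rise measured in the same 0.5 h libraries, so that share is not a like comparison. The share among all genes that rose by 0.5 h was not taken, and nothing particular to the family is read from this. The call of Dusp2 ended in several settings given above, and Dusp4 and Dusp5 were lower before LPS too. At 2 h Dusp1, Dusp5 and Dusp7 were lower, and Dusp2, Dusp4, Dusp6 and Dusp16 were higher.

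**Figure D2:**
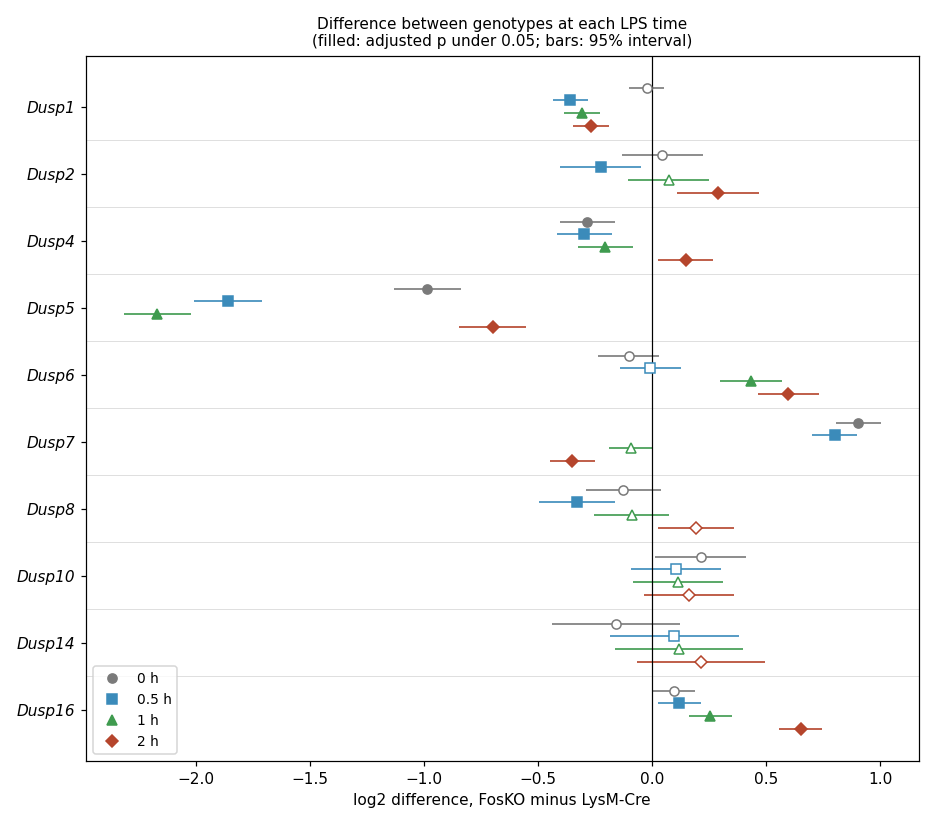
Difference in log2 value between genotypes (FosKO minus LysM-Cre, 3 libraries each) for each phosphatase at 0, 0.5, 1 and 2 h of LPS. Bars are 95% intervals from limma and filled symbols have an adjusted p under 0.05. Dusp5 lies to the left of 0 at every time, down to -2.17 at 1 h, and Dusp7 moves from 0.90 at 0 h to -0.35 at 2 h.

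Whether LPS acted differently in the genotypes was asked with the difference in response, the change from 0 h in FosKO minus that in LysM-Cre. At 0.5 h 2 of the 10 phosphatases were called, Dusp1 and Dusp5, where 0.115% of all tested genes were. At 1 h it was 4 against 1.22%, which added Dusp6 and Dusp7. At 2 h 5 were called against 15%, namely Dusp1, Dusp4, Dusp6, Dusp7 and Dusp16. The comparisons at the 3 times share the same 0 h libraries, so they are not independent of each other. In this fit Dusp2, Dusp8, Dusp10 and Dusp14 were called at no time, and their differences at 2 h were 0.24, 0.32, -0.05 and 0.37 with 95% intervals of -0.01 to 0.50, 0.08 to 0.55, -0.33 to 0.23 and -0.03 to 0.77. That of Dusp2 passed the threshold when only the groups compared were fitted (adjusted p 0.0414). That of Dusp8 (adjusted p 0.0618) passed it under median centring (0.34, adjusted p 0.0405) and with a replicate block within genotype (0.32, adjusted p 0.0349). It also did when LysM-Cre replicate 2 of 2 h (0.37) or FosKO replicate 1 of 0 h (0.38) was left out.

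**Figure D3:**
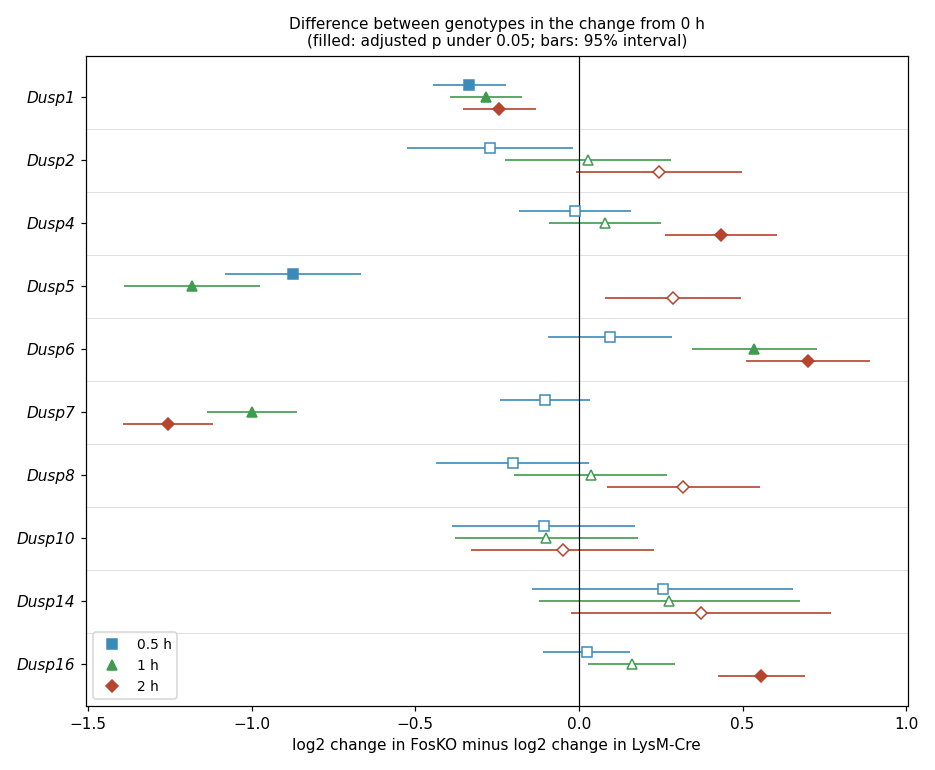
Difference between genotypes in the log2 change from 0 h, for each phosphatase after 0.5, 1 and 2 h of LPS. Bars are 95% intervals from limma and filled symbols have an adjusted p under 0.05. Values left of 0 mean that the change in FosKO was lower than that in LysM-Cre, as for Dusp5 at 0.5 and 1 h (-0.87 and -1.18), which rose less, and Dusp7 at 1 and 2 h (-1.0 and -1.25), which fell in FosKO but not in LysM-Cre relative to 0 h.

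The courses of the phosphatases were also compared with each other over the 8 group means, as a description over points that share libraries and scaling. Dusp4 and Dusp8 were most alike among the early genes (Pearson r = 0.97), and Dusp14 and Dusp16 among the late ones (0.97). Dusp6 followed Dusp10 (0.92) and ran against Dusp14 (-0.93). Among all genes with a linear mean of at least 50, Btg2 and Egr1 were closest to Dusp1 (0.96 each), and Nfkbia and Tnf to Dusp2 (0.99 and 0.98). Slc20a1 and Zfp703 were closest to Dusp4 (0.99 and 0.98), Dennd4b and St18 to Dusp5 (0.97 each), Deaf1 and Mms19 to Dusp6 (0.98 each) and Nup50 and Rsl1 to Dusp7 (0.97 and 0.95). Mafg and Nuak2 were closest to Dusp8 (0.99 each), Dguok and Fam102a to Dusp10 (0.99 each), Gtf2b and Gm13889 to Dusp14 (1.00 each) and Pik3ca and Nup54 to Dusp16 (0.99 each).

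The kinases that these phosphatases act on and the other phosphatases of the pathway were examined as 4 lists. Of the MAP kinases 9 of 14 were tested, of the MAP kinase kinases with TPL-2 all 8, of other dual-specificity phosphatases 14 of 19, and of other phosphatases that act on MAP kinases 9 of 11. At 2 h these lists had 2 higher and 4 lower, 3 and 2, 3 and 2, and 4 and 2 in the FosKO-labelled libraries, with medians of 0.01, 0.08, 0.03 and 0.04 against 0.00 over all tested genes. At 0 h they had 3 and 2, 1 and 1, 2 and 1, and 3 and 2, with medians of 0.08, -0.02, 0.00 and 0.01. At 1 h they had 2 and 2, 2 and 1, 5 and 1, and 1 and 2, and at 0.5 h 3 and 1, 1 and 2, 3 and 2, and 3 and 2. From the earliest to the latest time, the share of all tested genes called higher was 19.5%, 21.2%, 18% and 24.4%, and the share called lower was 15.9%, 19.7%, 15.9% and 20.3%.

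Upstream of the MAP kinases, Map3k8, which encodes the ERK pathway kinase TPL-2, was higher in the FosKO-labelled libraries by 0.31, 0.34, 0.50 and 0.27 at 0, 0.5, 1 and 2 h. Map2k3, which encodes an activator of p38, was lower at every time (-0.27, -0.28, -0.50 and -0.59, limma adjusted p at most 2.77e-05). Mapk11, the p38 beta gene, was lower by -0.58, -0.32, -0.51 and -0.69. At 0.5 h its call ended under quantile normalisation (-0.27), with only the groups compared (adjusted p 0.0549) and when LysM-Cre replicate 1 (-0.28), LysM-Cre replicate 2 (-0.33) or FosKO replicate 3 (-0.22) was left out. Of the MAP kinases that were higher in FosKO, Mapk7, the ERK5 gene, had the largest difference at 0, 0.5 and 1 h (0.21, 0.25 and 0.20), and the JNK1 gene Mapk8 at 2 h (0.29). Mapk7, chosen here after its values were seen, was lower in FosKO at 2 h (-0.19, adjusted p 0.0323), with a difference in response of -0.41 (adjusted p 0.00846). This call between genotypes at 2 h ended when LysM-Cre replicate 2 (-0.09), FosKO replicate 1 (-0.19) or FosKO replicate 3 (-0.17) was left out, and under quantile normalisation (-0.16), median centring (-0.16), no filter (adjusted p 0.0514), high 18S libraries alone (0.0522) or a fit of only the groups compared (0.085). The call of Mapk7 at 0 h ended when LysM-Cre replicate 2 (0.20), LysM-Cre replicate 3 (0.17) or FosKO replicate 2 (0.19) was left out, and that at 1 h on leaving out LysM-Cre replicate 1 (0.22), LysM-Cre replicate 2 (0.16) or FosKO replicate 2 (0.14), with no filter (adjusted p 0.0622), with an 18S term (0.0535) or in the high 18S libraries alone (0.326). That at 0.5 h ended in the high 18S libraries alone (0.21, adjusted p 0.094). Among other dual-specificity phosphatases, Dusp19 was lower (-0.23) and Ssh3 higher (0.13) at 0 h, and neither was called under quantile normalisation (-0.20 and 0.08) or with FosKO replicate 2 left out (-0.21 and 0.10), nor Dusp19 with LysM-Cre replicate 3 left out (-0.21), nor Ssh3 with only the groups compared (adjusted p 0.0535). Dusp9 was lower at 0.5 and 1 h (-0.50 and -0.42), and Dusp28 was higher (0.61 and 0.46). At 1 h Dusp28 was no longer called when LysM-Cre replicate 1 (0.42), LysM-Cre replicate 3 (0.40) or FosKO replicate 2 (0.39) was left out, and neither Dusp28 (0.61, adjusted p 0.0595) nor Dusp9 (-0.28) was called from the high 18S libraries alone. Ssh2, which encodes a cofilin phosphatase, was higher by 0.77 at 2 h, and Ssh1, of the same family, was lower (-0.21). Ptpn6, the gene of the tyrosine phosphatase SHP-1, was higher by 0.26, 0.29 and 0.23 at 0, 0.5 and 1 h, and Ptpn2 by 0.35 at 2 h. The FosKO mean of Ptpn6 was also higher at 2 h (12.75 against 12.55). Ptpn7, whose product removes phosphate from ERK and p38 in blood cells, was lower at 0 and 2 h (-0.24 and -0.27), and Ppm1d at 0.5 and 1 h (-0.27 and -0.23), the latter not called in the high 18S libraries alone (adjusted p 0.0993). The FosKO mean of Ptpn7 was also lower at 0.5 h (10.68 against 10.90) and 1 h (10.52 against 10.68). That of Ppm1d was also lower at 0 h (7.68 against 7.88) and 2 h (7.21 against 7.42). Apart from Mapk7 at 2 h, genes are named at the times when they led their list in a direction. A time left out need not lack a difference. Within these 4 lists no difference at 1 h reached that of Dusp5.

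**Figure D4:**
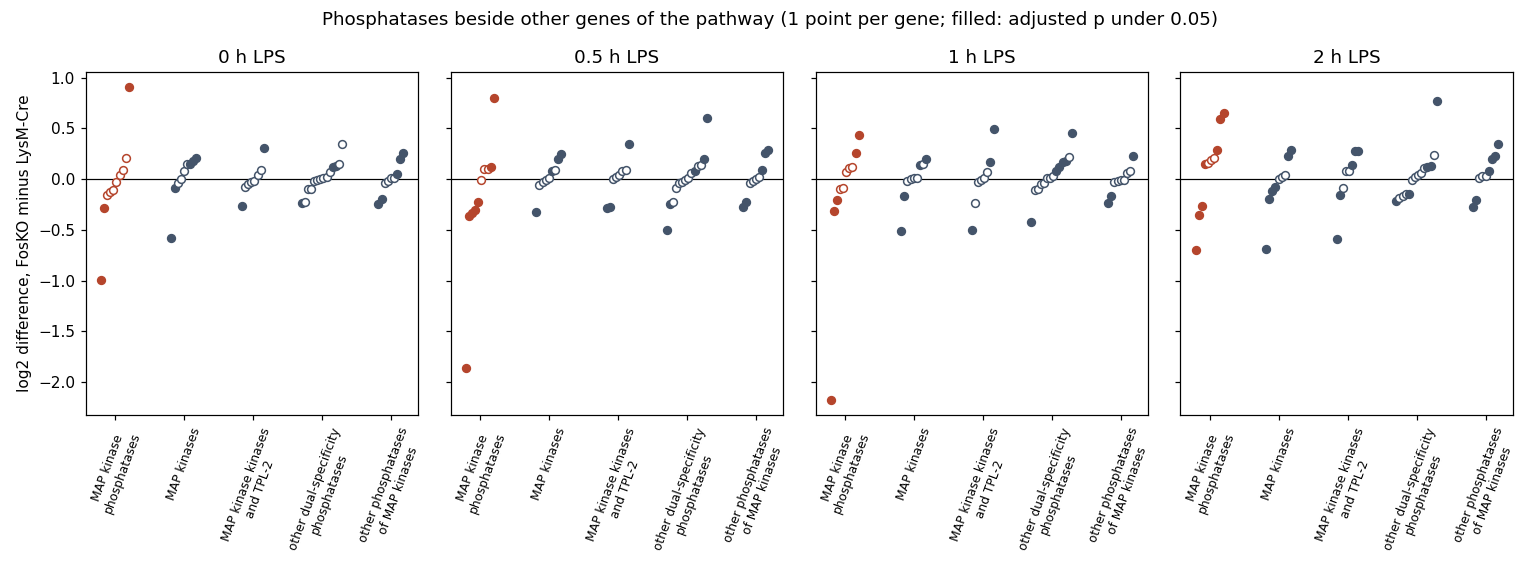
Difference in log2 value between genotypes at 0, 0.5, 1 and 2 h of LPS for the 10 phosphatases and for the tested genes of 4 lists of the pathway, 1 point per gene and filled where the adjusted p was under 0.05. Dusp5 is the lowest point at each time, at -2.17 after 1 h, and the lists lie within -0.69 and 0.77.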

How the data were processed

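RNA-seq of 24 BMDM libraries (2 genotypes, 4 times of LPS) was analysed. The libraries were strand-specific and single-end, per the study's methods, which state alignment to RefSeq mm10, whereas the deposited table carries Ensembl identifiers. The submitters' processing notes name STAR 2.5.2a, RSEM 1.2.31, DESeq2 1.16.1 and GRCm38. The authors deposited log2 expression values, 1 column per library, that behave like a regularised log transform, which shrinks the changes of low genes. The transform is not named in the sources used here. Every column was mapped to a sample by its name (0 columns unmapped). Linear values had been assumed when the tests were planned, and limma was instead applied to the log2 values as deposited, with no pseudocount.

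limma 3.58.1 (R 4.3.3) fitted 8 group means with a trend in the variance to 13901 of 24273 genes, those at a linear value of at least 5 in at least 3 libraries. Of the rows in the table, 1017 had no symbol. Benjamini-Hochberg adjustment was applied over all tested genes in each of 17 comparisons, and genes were called at an adjusted p under 0.05. Tests are two-sided, and 3 libraries against 3 allow an exact permutation p of 0.1 at the smallest, so no such test is given. On simulated data the test between genotypes at 0.5 h recovered 97% of genes changed by 1 and 77% of those changed by 0.5 on the log2 scale, and that of the difference in response at 0.5 h recovered 92% and 56%.

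Same-numbered libraries were checked for shared deviations from their group means. All 3 pairs correlated at over 0.1 only for FosKO at 0 with 0.5 h and at 0.5 with 1 h, a pairing read from the values and not from the labels.

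The members and lists were chosen with earlier results of these data known. All members are named. From each list, the tested gene with the largest called difference in each direction at each time is named (and Mapk7 at 2 h, outside this rule), and for each member the 2 genes with the highest Pearson correlation over group means among genes with a linear mean of at least 50. Gene positions are from GENCODE M21 (GRCm38), and promoters and their starts from RefSeq (GRCm38.p6), whose starts differ from the gene ends for some genes. Figures were drawn with matplotlib 3.10.9. Alternatives were quantile normalisation, median centring, other filters, no variance trend, a replicate block, an 18S term, high 18S libraries only, only the groups compared, and each library left out. Erythroid markers had no rows. T cell (0 of 3), B cell (0 of 3) and mast cell markers did not pass the filter, and 2 of 4 dendritic cell and 2 of 4 fibroblast markers did.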

Additional observations from a re-analysis of the deposited data

Results flagged for a closer look

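The change after LPS differed between the genotypes, by the test of that difference (limma, 3 libraries per group, adjusted over all tested genes), for the phosphatases below. Over all tested genes the share called was 0.115% at 0.5 h, 1.22% at 1 h and 15% at 2 h. Values are the change from 0 h in FosKO minus that in LysM-Cre on the log2 scale. For Dusp1 the difference was -0.33, -0.28 and -0.24 at 0.5, 1 and 2 h. For Dusp5 it was -0.87 at 0.5 h and -1.18 at 1 h. For Dusp6 it was 0.54 at 1 h and 0.70 at 2 h. For Dusp7 it was -1.0 at 1 h and -1.25 at 2 h. At 2 h only, it was 0.43 for Dusp4 and 0.56 for Dusp16. The comparisons at the 3 times share the 0 h libraries, and directions follow the labels as given.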

How the results depend on the processing

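Of the 170 differences of the 10 phosphatases (17 comparisons), 115 were called, where the share of all tested genes called ran from 0.115% to 62.1% over these comparisons. Over 1999 alternative settings of these, 1957 kept sign and call, 42 kept the sign and lost the call, and 0 changed sign. Of 1031 settings of the 55 differences not called, 27 gave a call. With only the groups compared in the fit, 1 phosphatase instead of 2 differed in its response at 0.5 h. In all 16 differences changed sign in some setting, and neither the value in the main fit nor the reversed value was called. Between genotypes at 1 h, Dusp7 and Dusp2 were called with the sign of the main fit in other settings, as given above. Of the 16, 3 were changes of Dusp2 between successive times. Of the others, those under quantile normalisation were Dusp16 at 0.5 h in LysM-Cre (-0.010), Dusp10 at 0.5 h (0.011) and Dusp4 at 2 h (-0.096) in FosKO, and the response of Dusp2 at 1 h (-0.043). Between genotypes they were Dusp6 at 0.5 h with median centring (0.0061) and Dusp7 at 1 h in the high 18S libraries (0.061), where the response of Dusp4 at 0.5 h was 0.013. The cause was not tested. With 1 library left out at a time, the change in FosKO lay between -0.11 and 0.055 for Dusp10 and between -0.061 and 0.0042 for Dusp6 at 0.5 h, and between -0.045 and 0.048 for Dusp4 at 2 h. The difference between genotypes lay between -0.0062 and 0.21 for Dusp14 and between -0.056 and 0.019 for Dusp6 at 0.5 h, and between -0.017 and 0.17 for Dusp2 at 1 h. The difference in response lay between -0.15 and 0.028 for Dusp10 at 2 h, -0.0067 and 0.057 for Dusp16 and -0.069 and 0.019 for Dusp4 at 0.5 h, and -0.061 and 0.13 for Dusp2 and -0.051 and 0.12 for Dusp8 at 1 h.

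Replicate numbers did not pair the libraries throughout, since 12 of 36 pairs of one genotype and 6 of 48 across genotypes correlated at over 0.1. Within FosKO all 3 pairs did between 0 and 0.5 h (0.13 to 0.27) and between 0.5 and 1 h (0.33 to 0.71), and in no other combination of groups did all 3. A replicate block gave 6 instead of 5 phosphatases called at 0.5 h in FosKO (Dusp14, 0.43) and 6 instead of 5 in the response at 2 h (Dusp5, 0.29), and a block within genotype gave 7 in the latter (Dusp8 added, 0.32).

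Counts over all tested genes also moved in some settings. The 16 genes whose response differed at 0.5 h became 26 under quantile normalisation, 25 with a block within genotype, 9 in the high 18S libraries, 6 with only the groups compared, and 10 or 9 without LysM-Cre replicate 2 or 3 of 0.5 h. At 1 h 169 became 93 (high 18S) and 112 (only the groups compared). In the high 18S libraries 4708 genes differing between genotypes at 1 h became 2994, 4970 changed at 1 h in LysM-Cre became 3009, and 3725 changed from 0.5 to 1 h became 2010. With only the groups compared, 823 genes changed at 0.5 h in FosKO became 301, and 3819 from 0.5 to 1 h became 2471. The 823 became 542 without FosKO replicate 3 of 0.5 h. The share of called genes that were higher moved under quantile normalisation from 53.1% to 42.8% and from 54.6% to 43.0% between genotypes at 1 and 2 h. For the changes after LPS at 0.5, 1 and 2 h in LysM-Cre the shares of 70.3%, 53.8% and 50.3% became 48.3%, 37.6% and 40.0%, while for FosKO the shares of 75.2%, 54.0% and 52.5% became 50.5%, 35.3% and 39.2%. From 0.5 to 1 h it moved from 52.2% to 41.8% in LysM-Cre and from 52.7% to 39.1% in FosKO, and from 1 to 2 h in FosKO from 53.6% to 42.1%. It moved the other way for the response at 1 h in the high 18S libraries (40.2% to 65.6%) and without FosKO replicate 1 of 1 h (50.3%), for the response at 0.5 h with no filter (12.5% to 23.5%), and under median centring for the response at 2 h (48.5% to 59.1%) and from 0.5 to 1 h in LysM-Cre (64.8%).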
